A study of Canis lupus familiaris with 6 samples.

Results

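The plasma membrane and lysosomal amino acid transporters of the SLC1, SLC3, SLC7, SLC36, SLC38 and SLC43 families were read from a gene table of cultured dog keratinocytes. The members were chosen by gene symbol, which gave 40 genes of the 35993 in the table, and 22 of the 40 passed edgeR's filter on low counts, against 14708 genes in all. These families were selected on differences between the same dCAMP and gas libraries that were already known, so the fold changes below describe the members and carry no independent support. The symbols take in SLC43A3, a nucleobase carrier, and SLC7A4 and several SLC38 genes whose substrates are not settled.

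CPEK, a line of canine epidermal keratinocytes with a wild-type genotype, was exposed for 30 s either to cold atmospheric microwave plasma applied straight to the cells (dCAMP) or to the feed gas without plasma (gas control). All cells were grown in DMEM with serum, penicillin and streptomycin. After exposure they stood for 15 min, received fresh complete medium and were cultured for 24 h before RNA was collected. Stranded mRNA libraries were made, 3 per group, and gas libraries 1, 2 and 3 held 45167120, 53166657 and 54082634 counts while dCAMP libraries 1, 2 and 3 held 46479197, 43084921 and 44692385. The labels number the libraries and do not say whether they came from separate cultures, so the p-values measure only the spread between these libraries.

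Amino acids cross membranes through carriers that differ in their energy source. Several SLC38 carriers, such as SLC38A2, and the glutamate carriers of SLC1 use the sodium gradient to concentrate their substrates. SLC7 light chains are mostly exchangers that reach the surface bound to an SLC3 heavy chain. Among the SLC36 carriers, SLC36A1 is driven by protons. An exchanger such as LAT1 spends intracellular glutamine to bring in leucine, and glutamine carriers such as ASCT2 and SNAT2 help to keep that glutamine available. In keratinocytes this uptake feeds protein synthesis, mTORC1 signalling and, through cystine, the glutathione that buffers oxidants.

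The gas libraries stood apart from one another more than the dCAMP libraries did. Across the 22 members tested, the correlation of log2(FPKM + 1) was 0.952 between gas 1 and gas 3 and 0.997 to 0.999 among the dCAMP pairs, while gas 3 correlated with the dCAMP libraries at 0.988 to 0.993 and gas 1 at 0.926 to 0.933. Over all genes tested, the correlation was 0.955 between gas 1 and gas 3 and 0.998 among the dCAMP pairs. There gas 3 correlated with the dCAMP libraries at 0.996 to 0.997 and gas 1 at 0.947 to 0.952. The spread was thus not particular to the members. These correlations run across genes, which are not independent replicates. The median absolute log2 difference over the members was 0.39 between gas 1 and gas 3, and 0.07 to 0.11 within dCAMP. Gene length moved with this spread. The 3760 genes longer than 4000 bases had a median log2 CPM, relative to each gene's mean over the libraries, of -0.17, -0.09 and 0.07 in the gas libraries, against 0.07 to 0.11 with dCAMP. The log2 fold changes of most members named below are therefore also given without gas 1 and without gas 3, and after a correction for gene length where that moved them by over 1.5 times or turned their sign. The part of gene length in the differences was otherwise not tested.

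The cells carried the markers of keratinocytes. All 13 keratinocyte markers were tested, their summed expression was 19455 to 26458 FPKM per library, and KRT5, the basal keratin, was the most abundant at 10287 FPKM on average in gas. Their sum was 26458, 24502 and 20835 FPKM with gas against 20569, 20642 and 19455 with dCAMP, so it ran in the same order among the gas libraries as SLC7A5, SLC3A2, SLC1A5 and SLC1A4 described below, and its part in those differences was not tested. Of these markers, 2 were higher and 3 lower in dCAMP at an unadjusted p under 0.05, against 6.81% and 13.9% of all genes tested, and their median log2 fold change was -0.02. Markers of other cells were near absent, with summed expression of at most 0.961 FPKM for 6 fibroblast genes, 0.934 for 5 melanocyte genes, 1.98 for 3 endothelial genes and 0.608 for 4 immune genes. COL3A1, SOX10, VWF and CD14 were the most abundant of these. Of the same lists, PDGFRB, LUM, DCN, TYR, DCT, PECAM1, PTPRC, CD3E and AIF1 were at 0 in every library. At an unadjusted p under 0.05, 1 of 3 tested melanocyte genes and 1 of 2 endothelial genes were higher in dCAMP. At the same p, 1 of 3 fibroblast genes was lower and the 1 tested immune gene was not called. The melanocyte gene also had a 2-fold change.

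The members together took 0.245%, 0.249% and 0.276% of all counts in gas and 0.259%, 0.241% and 0.268% in dCAMP, so the groups overlapped. Levels between genes were compared per transcript length, as FPKM, and 12 of the 22 tested members averaged at least 10 FPKM over the 6 libraries while 3 averaged under 1. SLC7A5, SLC38A2, SLC1A5, SLC3A2, SLC38A10 and SLC38A1 were the 6 most abundant, in that order of mean FPKM, but the order differed between the groups. In gas every library had more SLC7A5 (135 to 189 FPKM) than any library had SLC38A2 (38.1 to 123 FPKM), and in dCAMP the reverse held, with 75.8 to 97.4 FPKM of SLC7A5 and 135 to 155 FPKM of SLC38A2. By the mean over all 6 libraries, the highest member of each substrate class was SLC7A5 for neutral amino acids, SLC38A2 for glutamine, SLC7A1 for cationic amino acids, SLC7A11 for cystine and SLC1A1 for anionic amino acids. Among glutamine carriers this too depended on the group, since SLC1A5 averaged 103 FPKM and SLC38A2 81.8 FPKM in gas, against 60.3 and 146 FPKM in dCAMP.

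**Figure D1:**
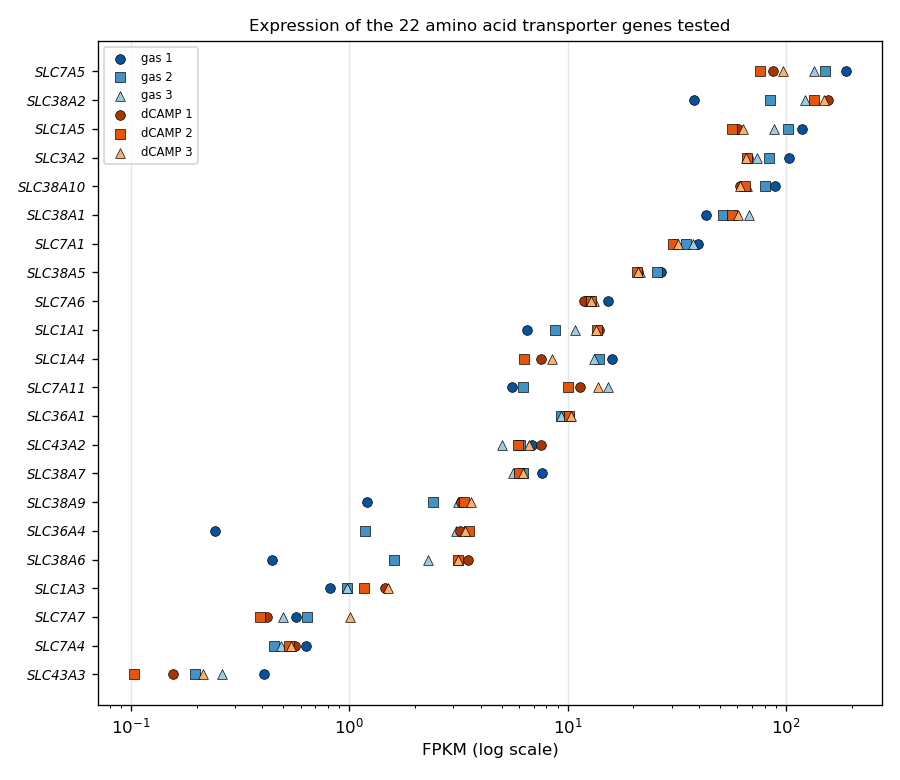
FPKM on a log scale for the 22 members tested, ordered by their mean, with 1 point per library (blue for gas, orange for dCAMP). The gas points of SLC38A2, SLC36A4, SLC38A6 and SLC38A9 are spread to the left of their dCAMP points, while in SLC7A7 the dCAMP points are spread more widely than the gas points.

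No member passed an adjusted p under 0.05 by the edgeR quasi-likelihood test (Benjamini-Hochberg adjusted), and neither did any of the 14708 genes (0%). At an unadjusted p under 0.05, 2 members were higher in dCAMP, against 6.81% of all genes tested, and 6 were lower, against 13.9%. No member combined this p with a 2-fold change, against 1.09% of all genes. In 7 members every dCAMP library was above every gas library, against 19.0% of all genes, in 7 every dCAMP library was below, against 20.9%, and in 8 the groups overlapped. The 22 members had a median log2 fold change (dCAMP over gas) of 0.04, against 0.03 for all genes, with 12 above 0 and 10 below. These shares describe genes that were picked with the contrast in view, and nothing is read from them. DESeq2, limited to genes counted in all 6 libraries, gave 3 members an adjusted p under 0.05, all lower in dCAMP, against 0.750% of genes lower and 0.495% higher, and limma-voom with sample quality weights gave 10 higher, against 32.6% of genes, and 7 lower, against 28.2%. Without gas 3, edgeR called 4 members higher, against 15.0% of genes, and 7 lower, against 18.1%. Without gas 1 it called 0 members. In bulk RNA, fewer cells of a kind and less RNA per cell cannot be told apart.

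**Figure D2:**
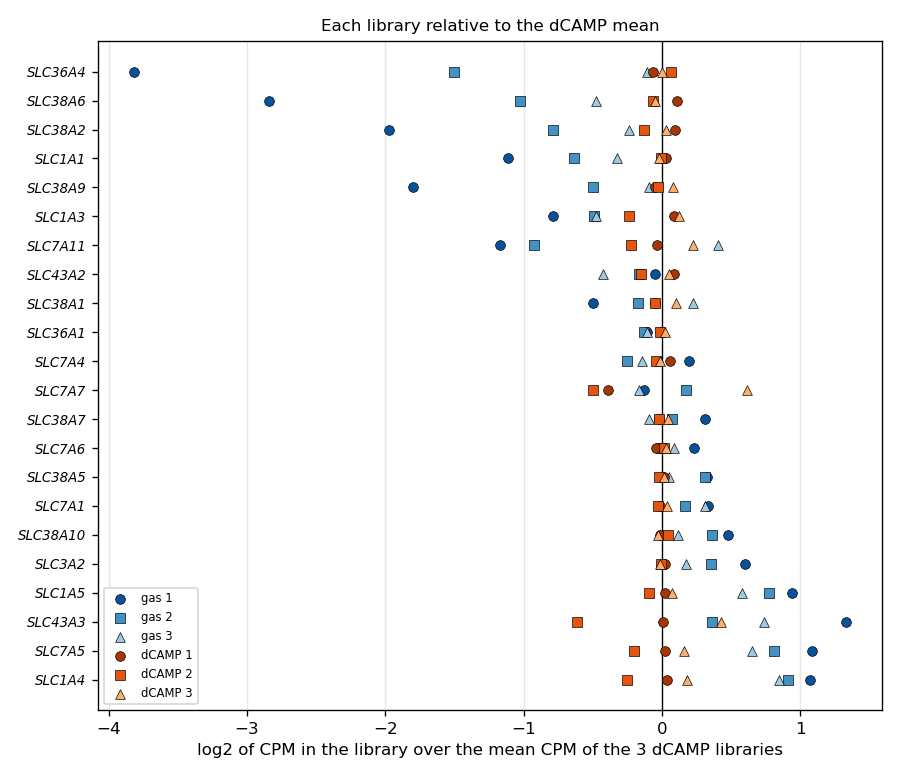
log2 of each library's CPM over the mean CPM of the 3 dCAMP libraries, for the 22 members tested, ordered by log2 fold change. Gas 1 lies farthest out in most genes on both sides, at -3.82 for SLC36A4 and 1.07 for SLC1A4, and gas 3 lies nearest to the dCAMP points in most.

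SLC7A5, SLC1A5 and SLC1A4, the 3 members that DESeq2 called, were lower in dCAMP. SLC7A5 (gene ID 489667, chr5:65313105-65343858 in CanFam3.1) encodes LAT1, the light chain that exchanges glutamine for leucine and other large neutral amino acids. Its level was 359.8, 296 and 266 CPM (counts per 1e+06, scaled to the normalized library size) with gas and 172, 147 and 189 CPM with dCAMP. The lowest gas library was 1.40 times the highest dCAMP library, so the groups were well apart. The means were 307 ± 48.0 and 169 ± 21.4 CPM (SD, n = 3 each), a log2 fold change of -0.86 (SE 0.15). The edgeR adjusted p was 0.221 and the DESeq2 adjusted p 0.00509. Leaving out gas 1 moved the log2 fold change to -0.75 and leaving out gas 3 moved it to -1.0, where the edgeR adjusted p was 0.0203.

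SLC3A2 (gene ID 483777, chr18:53810468-53819021) encodes 4F2hc, the heavy chain that carries LAT1, xCT and the y+L exchangers to the surface. It measured 211, 177 and 157 CPM in gas and 141, 139 and 137 CPM in dCAMP. All gas libraries were above all dCAMP libraries, gas 3 by the least, and the 3 dCAMP libraries were almost equal. The log2 fold change was -0.39 (SE 0.12), or -0.29 without gas 1 and -0.53 without gas 3, less than the fold change of its partner SLC7A5. The other heavy chain, SLC3A1, had at most 3 counts in any library.

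SLC1A5 (gene ID 484425, chr1:109150205-109161375) encodes ASCT2, a sodium-dependent exchanger that brings in glutamine. Its level was 260.3, 232 and 203 CPM in gas and 138, 128 and 143 CPM in dCAMP, so that the lowest gas library was 1.42 times the highest dCAMP library. The means were 232 ± 28.5 and 136 ± 7.77 CPM (SD, n = 3 each) and the log2 fold change was -0.77 (SE 0.11), with an adjusted p of 0.221 in edgeR and 0.00114 in DESeq2. It was -0.70 without gas 1 and -0.90 without gas 3. The gene's counts were split between transcripts in a way that crossed the groups. A transcript of 1883 bases held 41.3%, 28.5% and 3.92% of the gene's counts in gas and 5.70%, 6.57% and 34.1% in dCAMP, and a transcript of 2080 bases held 54.9%, 60.5% and 71.9% in gas and 69.7%, 67.1% and 55.6% in dCAMP. How shared reads were divided between them by the authors' counting is uncertain. The gene total was the sum over its transcripts, and whether it depends on that division was not tested.

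SLC1A4 (gene ID 481391, chr10:64482840-64508288) encodes ASCT1, the related exchanger of alanine, serine and cysteine. It had the most negative log2 fold change of the tested members. The gas libraries held 78.6, 70.6 and 67.5 CPM and the dCAMP libraries 38.5, 31.5 and 42.6 CPM. The lowest gas library was 1.58 times the highest dCAMP library, the widest gap among the members whose groups did not overlap. The means were 72.2 ± 5.71 and 37.5 ± 5.61 CPM (SD, n = 3 each), with a log2 fold change of -0.94 (SE 0.14) and an adjusted p of 0.221 in edgeR and 0.000131 in DESeq2. Leaving out gas 1 gave -0.90 and leaving out gas 3 gave -1.04.

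**Figure D3:**
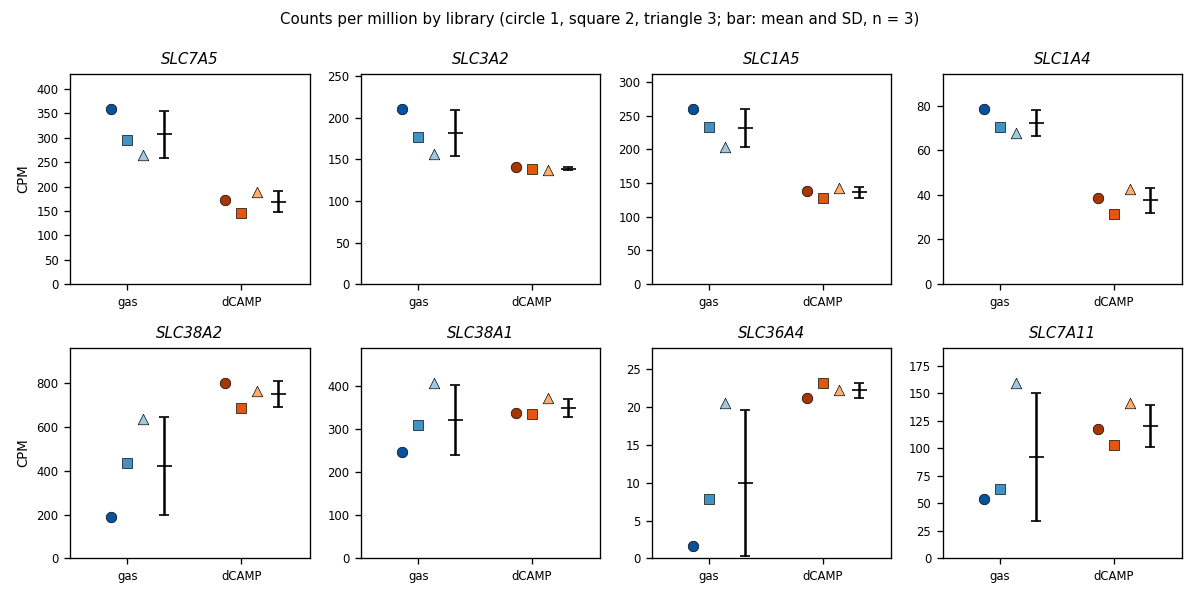
CPM in each library for 8 transporters, with the mean and SD of 3 libraries beside each group. In the upper panels (SLC7A5, SLC3A2, SLC1A5, SLC1A4) all gas points lie above the dCAMP points, and in the lower panels (SLC38A2, SLC38A1, SLC36A4, SLC7A11) the gas points are spread widely, with gas 3 near or above the dCAMP points.

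SLC43A2 encodes LAT4, a sodium-independent uniporter for leucine and its neighbours. It held 27.4, 25.2 and 21.1 CPM in gas and 30.1, 25.5 and 29.4 CPM in dCAMP, with overlapping groups and a log2 fold change of 0.21 (SE 0.14). It was 0.27 without gas 1, 0.06 without gas 3 and -0.02 after the correction for gene length. SLC7A8, which encodes the second LAT light chain, had 5, 10 and 0 counts in gas and 15, 7 and 19 in dCAMP and was not tested. SLC43A3, the nucleobase carrier, had 50, 29 and 38 counts in gas and 20, 12 and 26 in dCAMP and overlapped. Its log2 fold change of -0.80 (SE 0.36) was -0.53 without gas 1 and -0.90 without gas 3. It was -0.35 with limma-voom quality weights and -0.15 on log2 of FPKM plus 1.

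The SLC38 family held members in both directions. SLC38A2 (gene ID 486596, chr27:8056289-8068988) encodes SNAT2, the sodium-coupled carrier of alanine and glutamine that cells induce when amino acids are scarce. Its level was 191, 435 and 638 CPM in gas and 801, 687 and 765 CPM in dCAMP. All dCAMP libraries were above all gas libraries, but gas 3 lay close to the lowest of them, which was 1.08 times as high, and the gas libraries themselves spanned 3.34-fold. The means were 421 ± 224 and 751 ± 58.4 CPM (SD, n = 3 each), and the log2 fold change was 0.83 (SE 0.40) with an edgeR adjusted p of 0.264. It was 0.47 without gas 1 and 1.22 without gas 3, and it was 0.70 after the correction for gene length. SLC38A2 was the member of at least 10 FPKM with the largest log2 fold change.

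SLC38A1 (gene ID 477633, chr27:8110327-8179394), the neighbour of SLC38A2 on chromosome 27, encodes SNAT1, the standing glutamine carrier of many dividing cells. It held 247, 309 and 408 CPM in gas and 337, 336 and 373 CPM in dCAMP. Gas 3 was above every dCAMP library and gas 1 and gas 2 were below, so the groups overlapped, and the log2 fold change was 0.12 (SE 0.18), -0.06 without gas 1, 0.28 without gas 3 and -0.08 after the correction for gene length. SLC38A5, which encodes SNAT5, another glutamine carrier, went the other way at 54.2, 53.6 and 44.8 CPM in gas and 43.6, 42.6 and 43.6 CPM in dCAMP. Its groups were apart by 1.03-fold only, and its log2 fold change was -0.23 (SE 0.11), or -0.20 without gas 1 and -0.36 without gas 3. SLC38A7, a lysosomal glutamine exporter, overlapped with a log2 fold change of -0.11 (SE 0.13), which was -0.01 without gas 1, -0.24 without gas 3 and -0.25 after the correction for gene length.

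SLC38A9 (gene ID 487210, chr2:42921906-43004265) encodes the lysosomal arginine sensor that signals to mTORC1. It measured 2.79, 6.86 and 9.07 CPM in gas and 9.32, 9.47 and 10.2 CPM in dCAMP, with gas 3 just below dCAMP and gas 1 far below. The log2 fold change was 0.63 (SE 0.39), 0.26 without gas 1 and 0.95 without gas 3. A transcript of 2493 bases held 84.0% to 99.0% of the counts of SLC38A9 in every library but gas 1, where it held 0%. In gas 1, transcripts of 1762 and 2691 bases held 56.6% and 43.4% of its 129 counts. The part of this split in the low gas 1 value was not tested. SLC38A10 (gene ID 483360, chr9:810328-850031), an intracellular member of the family, held 404, 372 and 313 CPM in gas and 286, 298 and 284 CPM in dCAMP, with a log2 fold change of -0.33 (SE 0.11). This was -0.26 without gas 1, -0.47 without gas 3 and -0.50 after the correction for gene length. Its groups did not overlap, and gas 3 was again the nearest to dCAMP. SLC38A6, a low and poorly understood member, had 0.843, 2.96 and 4.34 CPM in gas and 6.52, 5.79 and 5.82 CPM in dCAMP. Its lowest dCAMP library was 1.33 times its highest gas library, the widest gap among the members higher in dCAMP, and its log2 fold change was 1.14 (SE 0.51), 0.71 without gas 1 and 1.59 without gas 3.

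Likeness to SLC38A2 was measured as the correlation of log2 CPM over the 6 libraries. SLC38A6 came first at 0.996, SLC36A4 followed at 0.989 and SLC38A9 at 0.987, and SLC3A2 was the most opposite at -0.966. The 6 points share their libraries, depth and the spread of the gas group, so the values are a description and no p is given.

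The tested SLC36 carriers differed in how far the gas libraries were spread. SLC36A1, which encodes PAT1, an exporter of small neutral amino acids from the lysosome, held 61.7, 60.9 and 61.5 CPM in gas and 66.2, 65.8 and 67.4 CPM in dCAMP. The groups did not overlap, and each varied little within itself. The log2 fold change was 0.12 (SE 0.08), and it was 0.10 without gas 1, 0.07 without gas 3 and -0.11 after the correction for gene length. SLC36A4 (gene ID 607790, chr21:7476291-7523463), a carrier of proline and tryptophan, had the largest log2 fold change of the tested members, just above SLC38A6 (1.14). That order turned in some alternatives, such as without gas 1 (0.63 against 0.71 for SLC38A6) and with the correction for gene length (1.03 against 1.17). SLC36A4 held 1.58, 7.84 and 20.6 CPM in gas and 21.3, 23.2 and 22.2 CPM in dCAMP. Its lowest dCAMP library was 1.03 times gas 3, while the gas libraries spanned 13.1-fold. The log2 fold change of 1.15 (SE 0.77) had an edgeR adjusted p of 0.352, and it was 0.63 without gas 1 and 2.18 without gas 3.

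Cationic carriers were led by SLC7A1 (gene ID 486022, chr25:10272949-10363793), which encodes CAT1, the main arginine and lysine uniporter of most cells. It held 299, 267 and 295 CPM in gas and 236, 233 and 244 CPM in dCAMP. Its gas libraries were among the least spread of the members, and all were above dCAMP, the lowest by 1.09-fold. The means were 287 ± 17.4 and 238 ± 5.81 CPM (SD, n = 3 each) and the log2 fold change was -0.27 (SE 0.08). It was -0.26 without gas 1 and -0.30 without gas 3, but -0.53 after the correction for gene length and -0.17 with limma-voom quality weights. SLC7A6 and SLC7A7, the y+LAT light chains that exchange cationic for neutral amino acids, overlapped, with log2 fold changes of -0.11 (SE 0.10) and 0.03 (SE 0.33). SLC7A4 also overlapped, at 0.06 (SE 0.17), and the sign for SLC7A7 and SLC7A4 turned with upper-quartile factors and without gas 3, and for SLC7A4 also with the correction for gene length (-0.07). For SLC7A6 the value was -0.06 without gas 1, -0.16 without gas 3 and -0.28 after the correction for gene length. The cationic carriers SLC7A2, SLC7A3 and SLC7A14 had at most 15 counts in any library.

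SLC7A11 (gene ID 483821, chr19:4289792-4379060) encodes xCT, the light chain that exchanges glutamate for cystine and so supplies cysteine to glutathione. It did not follow its heavy chain SLC3A2. Its level was 53.5, 63.4 and 159.5 CPM in gas and 118, 103 and 141 CPM in dCAMP. Gas 3 was above every dCAMP library, and gas 1 and gas 2 were below them all. The means were 92.2 ± 58.6 and 121 ± 19.2 CPM (SD, n = 3 each), and the log2 fold change of 0.39 (SE 0.42) became 0.10 without gas 1, 1.0 without gas 3 and 0.19 after the correction for gene length. Among the edgeR fits, only that without gas 3 gave it an adjusted p under 0.05, 0.0208. Limma-voom with sample quality weights gave a log2 fold change of 0.91 with an adjusted p of 0.00102 on all 6 libraries.

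Both tested carriers of anionic amino acids were higher in dCAMP. SLC1A1 (gene ID 403751, chr1:92898274-92978260) encodes EAAT3, which takes up glutamate, aspartate and cysteine. It held 25.3, 35.1 and 43.6 CPM in gas and 55.5, 54.2 and 53.8 CPM in dCAMP. The lowest dCAMP library was 1.23 times the highest gas library. The means were 34.6 ± 9.17 and 54.5 ± 0.912 CPM (SD, n = 3 each), with a log2 fold change of 0.65 (SE 0.20), 0.45 without gas 1 and 0.81 without gas 3. SLC1A3 (gene ID 403748, chr4:71936128-72014119) encodes EAAT1, a glutamate carrier best known from glia. At a low level, it measured 3.43, 4.22 and 4.26 CPM in gas and 6.32, 5.04 and 6.46 CPM in dCAMP, with groups that did not overlap. Its log2 fold change was 0.58 (SE 0.16), or 0.47 without gas 1, 0.58 without gas 3 and 0.31 on log2 of FPKM plus 1. SLC1A1 and SLC1A3 were the 2 members with an unadjusted p under 0.05 in this direction.

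**Figure D4:**
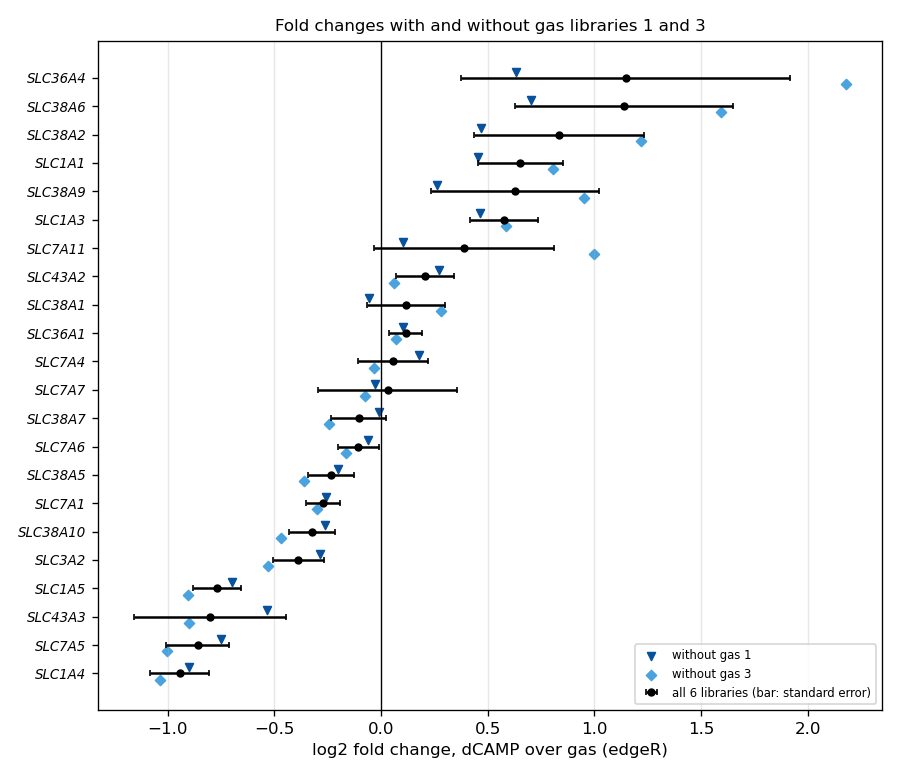
log2 fold change, dCAMP over gas, from edgeR for the 22 members tested (black, with SE bars), and the same without gas 1 (triangles) and without gas 3 (diamonds). The values without gas 3 lie farther from 0 than those without gas 1 at both ends of the order, by 2.18 against 0.63 for SLC36A4 and -1.04 against -0.90 for SLC1A4.

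Over all genes tested, gas 1 correlated least with the dCAMP libraries (0.947 to 0.952) and gas 3 most (0.996 to 0.997). The members with non-overlapping groups mostly had the gas libraries in the same position. The share of all non-overlapping genes with this order was not counted, so the counts that follow cannot be called particular to the members. Among the 7 higher in dCAMP, gas 1 was the lowest gas library in 6 and gas 3 the highest in 6, and the highest gas library was 1.01 to 13.1 times the lowest. Among the 7 lower in dCAMP, gas 1 was the highest gas library in 7 and gas 3 the lowest in 6, but the highest gas library was only 1.12 to 1.35 times the lowest. Within dCAMP the highest library was at most 1.35 times the lowest in both sets. By family, the median log2 fold change was -0.10 for the 4 tested SLC1 genes, -0.04 for the 6 SLC7 genes and 0.12 for the 7 SLC38 genes, the last being -0.01 without gas 1 and 0.28 without gas 3. By substrate it was -0.11 for the 5 glutamine carriers and 0.12 for the 5 neutral carriers, and each of these families and classes held members of both signs. The correction for gene length gave medians of -0.16, -0.18 and -0.08 for the families in the same order, -0.21 for glutamine and -0.11 for neutral carriers, and -0.04 for all genes.

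Of the 18 members not tested, 10 were at 0 in every library, where 3 counts, or 0.0566 to 0.0700 CPM per library, is the limit that a count of 0 allows for counting error alone. These were SLC1A2, SLC1A6, SLC1A7, SLC7A9, SLC7A10, SLC7A13, SLC36A2, SLC36A3, SLC38A4 and SLC38A8, among them glutamate carriers of the nervous system and the renal cystine exchanger. The other 8 had at most 19 counts in any library. SLC38A3, the SNAT3 glutamine carrier, had 8, 3 and 9 counts in gas and 8, 8 and 16 in dCAMP. SLC38A11 and SLC43A1, which encodes the LAT3 uniporter, had at most 7 and 3. These genes were too low to be tested at this depth.

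Genes that sense or respond to amino acid supply were compared as lists. Of 13 tested genes of the GCN2 and ATF4 response to amino acid shortage, 0 were higher and 5 lower in dCAMP at an unadjusted p under 0.05, against 6.81% and 13.9% of all genes. Their median log2 fold change was -0.36, against 0.03 for all genes. No gene of this list passed an adjusted p under 0.05 in edgeR, and DESeq2 called 2 lower, against 0.750% of genes. ATF4, a transcription factor of this response, held 655, 595 and 543 CPM in gas and 425, 339 and 444 CPM in dCAMP. Its protein was not measured in these libraries, and its part in the transporter differences was not tested. TRIB3, an ATF4 target that restrains AKT, had the most negative log2 fold change, -1.27 (SE 0.26). It measured 73.7, 56.1 and 50.7 CPM in gas and 25.8, 16.9 and 32 CPM in dCAMP, below gas in every library, and leaving out gas 1 or gas 3 gave -1.12 or -1.43. That of ATF4 was -0.57, or -0.52 and -0.68 without those libraries. STC2, a secreted stress protein, followed at -0.73, or -0.32 on log2 of FPKM plus 1, and the largest values were those of ATF3 at 0.34 and CEBPG at 0.19, both with overlapping groups. For CEBPG the fits without gas 1, gas 2 and gas 3 gave 0.08, 0.07 and 0.36.

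Of 35 tested genes of amino acid sensing by mTORC1, 4 were higher and 5 lower at an unadjusted p under 0.05, against 6.81% and 13.9% of all genes, with a median of -0.13. The share that was lower at this p was near that background. The groups did not overlap in 9 higher and 12 lower genes, against 19.0% and 20.9% of all genes. Without gas 3, edgeR called 10 higher and 8 lower at an adjusted p under 0.05, against 15.0% and 18.1%. BMT2, the S-adenosylmethionine sensor also called SAMTOR, held 4.41, 9.33 and 20.002 CPM in gas and 23.2, 26.2 and 24.5 CPM in dCAMP, and SESN3, a sestrin, held 20.5, 36.8 and 60.6 CPM in gas and 83.5, 75.7 and 89.4 CPM in dCAMP. Both had a wide gas spread, and their log2 fold changes were 1.13 and 1.07, or 0.73 and 0.75 without gas 1 and 1.79 and 1.49 without gas 3. The smallest log2 fold changes were those of WDR24, a subunit of GATOR2, at -0.42 (SE 0.12), and SESN2, the leucine sensor, at -0.36 (SE 0.15).

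Carriers of amino acids and peptides from other families also lay on both sides of 0. Of 19 tested, 4 were higher and 5 lower at an unadjusted p under 0.05, against the same 6.81% and 13.9%, with a median of -0.01. SLC6A14, a broad neutral and cationic carrier, held 2.03, 1.65 and 1.26 CPM in gas and 3.47, 2.66 and 2.59 CPM in dCAMP. SLC15A1, a peptide carrier, had a log2 fold change of 0.72 (SE 0.19), or 0.24 on log2 of FPKM plus 1. SLC6A9, the GLYT1 glycine carrier, held 51.4, 43.4 and 37.4 CPM in gas and 30.3, 23.7 and 32.6 CPM in dCAMP, and MFSD12, the lysosomal cysteine importer, had a log2 fold change of -0.37 (SE 0.12). Gas 1 was the highest gas library for SLC6A14, SLC15A1, SLC6A9 and MFSD12 alike. SLC6A14 and SLC15A1, which were higher in dCAMP, differed in this from SLC38A2, where gas 1 was the lowest.

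Of 6 tested genes of cysteine and glutathione metabolism, 0 were higher and 1 lower at an unadjusted p under 0.05, again against 6.81% and 13.9%, with a median of 0.09. GCLM, the modifier subunit of glutamate-cysteine ligase, held 29.7, 57.3 and 115 CPM in gas and 127, 133 and 142 CPM in dCAMP, with gas 3 again the nearest to dCAMP. Its log2 fold change was 0.99 (SE 0.45), or 0.63 without gas 1 and 1.58 without gas 3. GSR, glutathione reductase, had a log2 fold change of 0.26 (SE 0.11), which was 0.15 without gas 1. CBS, which starts transsulfuration, held 226, 208 and 170.4 CPM in gas and 161, 158 and 153 CPM in dCAMP, and CTH, the next enzyme, overlapped at -0.11 (SE 0.09), with a range of -0.21 to -0.08 when 1 library was left out.

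**Figure D5:**
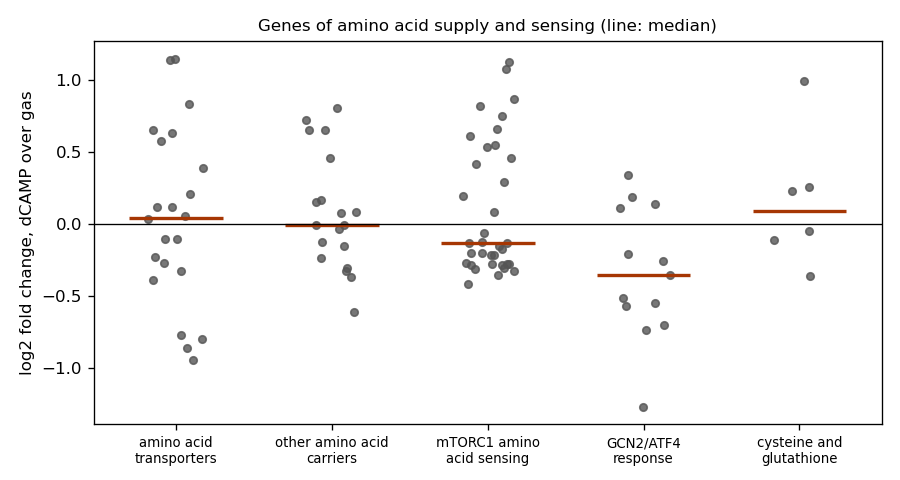
log2 fold change, dCAMP over gas, of each tested gene (points) in the members and in the 4 lists, with the median as a line. The medians are 0.04, -0.01, -0.13, -0.36 and 0.09 from left to right, and each group of points spans 0.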

How the data were processed

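RNA-Seq libraries of CPEK cells were compared, 3 gas and 3 dCAMP. The submitters' notes name FastQC 0.11.7, Trimmomatic 0.38, HISAT2 2.1.0, StringTie 2.1.3b and CanFam3.1. The authors deposited raw read counts per gene and per transcript of known transcripts, and FPKM values scaled by length and mapped reads. The transcript length in bases, which the authors deposited in the transcript table, gave gene lengths weighted by counts. The annotation release and the treatment of strand and of reads on overlapping genes are not given in the sources used here, and 6 of the 22 tested members (SLC1A1, SLC36A1, SLC38A6, SLC38A9, SLC7A1 and SLC7A7) overlap another gene. TPM columns were not used. RefSeq gene names (UU_Cfam_GSD_1.0) matched 40 of 40 members and 30915 of 35993 gene IDs, and coordinates are those of the deposited table.

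Counts were fitted over all 14708 genes kept by filterByExpr with edgeR 4.0.16 in R 4.3.3 (TMM factors, quasi-likelihood test, prior count of 2, Benjamini-Hochberg adjustment at 0.05). Standard errors were the size of the log2 fold change over the square root of F. Total counts were 43084921 to 54082634 per library. DESeq2 1.42.0, limma 3.58.1 (voom with sample quality weights, and log2 of FPKM plus 1 or 0.1), other size factors and count filters, the replicate number as a block, a lowess correction for gene length (span 0.3) and leaving out each library in turn were the alternatives. The edgeR, DESeq2 and length-corrected fits were also run on simulated counts. Those counts had the same spread in both groups and no trend with gene length. That run therefore cannot show how the fits behave with the wider spread of the gas libraries. The members, substrate classes, lists and cell markers were chosen with earlier results of these data known.

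Genes were named by rule: the most abundant member of each substrate class, the 6 largest and 6 smallest log2 fold changes, SLC3 heavy chains, tested SLC7, SLC38 and SLC43 members, the 2 largest and 2 smallest genes of each list, and the 3 members most like the one of at least 10 FPKM with the largest log2 fold change. ATF4, SLC36A1 and the members that were not tested were named after their values were seen. Promoter motifs were not analysed here.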

Additional observations from a re-analysis of the deposited data

How the results depend on the processing

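The log2 fold changes of SLC7A5, SLC3A2, SLC1A5, SLC1A4, SLC7A1, SLC38A10, SLC38A2, SLC36A4, SLC38A6, SLC38A9, SLC1A1 and SLC1A3 kept their direction under all 19 alternatives. The direction turned in 6 of the other named genes, all with small fold changes. For SLC38A1 it was -0.079 with the length correction, -0.073 with that and the block, and -0.055 to 0.28 without 1 library, the lowest without gas 1. For SLC7A4 it was -0.036 with upper-quartile factors, -0.073 with the length correction, -0.055 with that and the block, and -0.062 to 0.18 without 1 library, below 0 without gas 2 or gas 3. For SLC36A1 it was -0.11 with the length correction and -0.10 with that and the block, and for SLC43A2 it was -0.021 with the length correction. For SLC7A7 it was -0.19 with voom quality weights, -0.051 with upper-quartile factors, -0.020 on log2 of FPKM plus 0.1, -0.036 with the block, -0.034 with the block and length correction, and -0.43 to 0.19 without 1 library, below 0 without gas 1, gas 3 or dCAMP 3. For ATF3 it was -0.089 to 0.55 without 1 library, the lowest without dCAMP 1.

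The number of members called moved with the tool and with the gas libraries kept. At an adjusted p under 0.05, against 0 in either direction, both DESeq2 settings gave 3 lower, and voom quality weights gave 10 higher and 7 lower. Leaving out 1 library gave 0 to 4 higher and 0 to 7 lower, and the highest counts were those without gas 3. At an unadjusted p under 0.05, an added count, 2 members were higher, against 4 with both DESeq2 settings and with log2 of FPKM plus 0.1, 5 with log2 of FPKM plus 1, 11 with voom, and 2 to 7 when 1 library was left out. The count over all genes moved too, from 1001 higher to 1349 and 1378 with DESeq2, 1575 and 1744 with FPKM plus 0.1 and plus 1, 5074 with voom, and 322 to 3557 when 1 library was left out. Over all genes the lower count was 2039, against 4467 with voom, and 702 (without dCAMP 3) to 3817 (without gas 3) when 1 library was left out. With a 2-fold change as well, against 0, 1 was higher with DESeq2, upper-quartile factors, FPKM plus 0.1 and the length correction with the block, 2 with voom and 0 to 3 without 1 library, while 1 was lower with upper-quartile factors and both length corrections, and 0 to 2 without 1 library. Over all genes, against 141 higher and 20 lower with that 2-fold change, DESeq2 on all genes gave 308 and 61, DESeq2 on genes counted in every library 300 higher, voom 904 and 106, no filter 214 and 65, upper-quartile factors 35 lower, a minimum of 10 counts 4 lower, FPKM plus 1 1 lower, FPKM plus 0.1 357 higher, and leaving out gas 3 1473 and 50, while leaving out gas 1, dCAMP 1, dCAMP 2 or dCAMP 3 gave 31, 44, 35 or 42 lower. At an adjusted p under 0.05, against 0, DESeq2 on all genes gave 71 higher and 230 lower, and on genes counted in every library 64 and 97. Voom gave 4802 and 4142, the fit without gas 3 2249 and 2704, FPKM plus 0.1 3 higher, and the fit without gas 1 1 higher. The causes were not tested.

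Several medians moved with the scaling or with the libraries kept, and that of the amino acid shortage list, -0.36, was not among them. The members' median of 0.04 was -0.044 with upper-quartile factors, -0.093 with the length correction, -0.087 with that and the block, and -0.062 to 0.072 without 1 library. The median of the neutral carriers was 0.028, -0.11 and -0.10 under those 3 settings, and 0.060 to 0.12 without 1 library, the lowest without gas 3. The SLC7 median was -0.18 with the length correction, -0.16 with that and the block, and -0.24 to -0.031 without 1 library, and the SLC1 median was -0.22 on log2 of FPKM plus 1 and -0.18 to -0.062 without 1 library, the lowest without dCAMP 3. The SLC38 median was -0.010 without gas 1, 0.039 without dCAMP 3, 0.28 without gas 3 and -0.079 with the length correction. The glutamine carriers' median was -0.24 to -0.055 without 1 library. The mTORC1 list had -0.22 with upper-quartile factors, -0.22 with the length correction, -0.20 with that and the block, and -0.24 to -0.094 without 1 library, and the other carriers had 0.085 with voom, -0.089 with upper-quartile factors and -0.011 to 0.052 without 1 library. Upper-quartile factors also shifted the median of all genes from 0.03 to -0.06.

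The replicate numbers did not plainly pair the samples. Gas and dCAMP libraries of the same number deviated from their group means with correlations of 0.218, 0.0510 and 0.0855. Gas 1 went best with dCAMP 1 and gas 2 with dCAMP 2, but gas 3 also went best with dCAMP 2, at 0.147. With the replicate number as a block, 0 members passed an adjusted p under 0.05, the same as without it, 2 were higher and 6 lower at an unadjusted p under 0.05, against 1406 higher and 1369 lower of all genes (1001 and 2039 without the block), and the members' median was 0.01. Over all genes the block took the count of 2-fold changes at an unadjusted p under 0.05 from 141 to 417 higher, and to 445 with the length correction. SLC38A2 and SLC7A11 missed an adjusted p under 0.05 in edgeR on all 6 libraries, at 0.264 and 0.537, and passed it without gas 3, at 0.0434 and 0.0208, and with voom, at 0.000405 and 0.00102. Members with at most 19 counts in any library were not compared.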
